A study of Mus musculus with 40 samples.

Results

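Iron handling genes of macrophages were described across 8 groups of mouse bone marrow-derived macrophages. The set held 9 genes, chosen by symbol, of the 43430 genes in the count table. They were the ferritin chains Fth1 and Ftl1, the exporter Slc40a1 (ferroportin), the ferroxidase Cp (ceruloplasmin), the transferrin receptor Tfrc, the ferrireductase Steap3, the metal transporters Slc11a1 (NRAMP1) and Slc11a2 (DMT1), and the siderophore-binding protein Lcn2 (lipocalin 2). All 9 had a row in the table and all 9 passed the filter on low counts, as did 11853 genes in all.

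The cells came from C57/Bl6 mice of the genotypes labelled VAV-Cre WT and VAV-Cre NDI1, with 5 title numbers per genotype. Both genotypes carried Vav-iCre, which is active in hematopoietic cells, and the NDI1 mice also carried the yeast NADH dehydrogenase NDI1 behind a lox-stop-lox cassette in Rosa26, in a line that the methods give as mixed C57Bl/6J/N. NDI1 oxidises NADH without pumping protons. Piericidin A blocks mitochondrial complex I but leaves NDI1 active. Adult mice of both sexes were used, with littermate controls, and marrow was differentiated in M-CSF with methyl-pyruvate and uridine for 6 days. Cells were left untreated, given LPS at 100 ng/ml for 4 h, given piericidin A at 500 nM, or given piericidin A 30 min before LPS, with 5 libraries in each of the 8 groups. Each title number was shared by 4 libraries, 1 per treatment, and is read here as the mouse. WT mice were 449, 452, 453, 496 and 520, NDI1 mice were 447, 460, 461, 503 and 521, and values given mouse by mouse follow that order. The NDI1 transgene was not analysed here, so no transcript level checked the genotype labels.

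Macrophages take up most of their iron from engulfed red cells and from transferrin, store it in ferritin, and release it through ferroportin. Inflammation is known to make macrophages hold iron back, in part by lowering ferroportin. Translation of ferritin and ferroportin mRNA, and the stability of Tfrc mRNA, are controlled by iron-regulatory proteins that bind hairpins called iron-responsive elements. A read count shows the mRNA level and not its translation, so this control on ferritin protein is outside these measurements.

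The hairpins printed here are the matches to a strict form of the element among the 9 mRNAs, and they show at which end each match lies. UTRs of GENCODE vM21 transcripts on mm10 were searched on the transcript strand for a C, 5 stem bases, the loop CAGTGN, and 5 bases pairing with the stem, with G-U pairs allowed. Of the 9 genes 4 held a match, against 155 of 21899 coding genes, or 0.708%. A match in the 5′ UTR was found in 28 genes, 0.128%, and in the 3′ UTR in 127 genes, 0.58%. Each line gives 29 bases, with the 6 loop bases in capitals. Fth1 lies at chr19:9982732-9982760 on the plus strand, Ftl1 at chr7:45459779-45459807 on the minus strand, and Slc40a1 at chr1:45925465-45925493 on the minus strand, all in the 5′ UTR. The 4 Tfrc elements, named a to d from the 5′ end, lie in its 3′ UTR on the plus strand, at chr16:32631219-32631247, chr16:32631598-32631626, chr16:32631663-32631691 and chr16:32631710-32631738, in the order printed.
Fth1: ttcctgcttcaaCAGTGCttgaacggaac
Ftl1: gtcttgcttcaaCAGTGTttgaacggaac
Slc40a1: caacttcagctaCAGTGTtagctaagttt
Tfrc a: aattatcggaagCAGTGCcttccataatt
Tfrc b: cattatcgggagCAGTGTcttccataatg
Tfrc c: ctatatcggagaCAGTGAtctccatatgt
Tfrc d: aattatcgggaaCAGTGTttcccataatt
The Fth1 and Ftl1 elements shared 26 of 29 bases and differed by T1G, C4T and C18T, with Fth1 first and positions counted from the 5′ end. The other 5 genes gave no match to these letters, which does not show that they lack an element. Slc11a2, for example, is known to have an atypical element in the 3′ UTR of some of its transcripts, a form outside this pattern.

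Depth ran from 6950748 to 13552070 counts per library, with a median of 10361773.5. Levels are counts per 1000000 (CPM) after TMM scaling, which matches the bulk of genes between libraries. Defining macrophage genes were high throughout, with 8 of them summing to between 19484 and 37963 CPM, and the erythroid list of 8 genes never exceeded 1.25 CPM. The 5 LPS response genes checked summed to at most 410.1 CPM untreated and to at least 11805 CPM with LPS alone. Mice WT 496 and NDI1 503 stood apart from the other 8 on the second principal component, which held 7.32% of the variance. Their 8 libraries also held more of the 9 neutrophil marker transcripts, 515 to 2764 CPM in sum against 55.2 to 271 CPM in the other 32. Ngp reached 1065 CPM and S100a9 1037 CPM in these libraries, while Ly6g stayed at or below 2.02 CPM. In bulk RNA, fewer cells of a type and less RNA per cell cannot be told apart.

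Of the 9 genes 8 changed in WT macrophages at an adjusted p under 0.05 by edgeR's quasi-likelihood test with Benjamini-Hochberg adjustment over all genes, against a background of 62.5% of all genes. Cp, Lcn2, Slc11a2 and Fth1 rose, though Fth1 did not on total counts (background for rises 31.5%), and Slc40a1, Steap3, Tfrc and Ftl1 fell (background for falls 31%). The same 8 genes were called with the same signs in NDI1 macrophages, where 62.7% of all genes were called, 31.5% higher and 31.2% lower. The LPS effect differed between genotypes for none of the 9, nor for any gene tested (0% called by edgeR, 63 genes at an unadjusted p under 0.05, and 0 by DESeq2).

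These LPS changes are relative to the bulk of genes. TMM factors were 1.25 to 1.37 in untreated and 0.696 to 0.876 in LPS-treated libraries. Scaling by total counts alone instead moved the median gene in the WT LPS comparison by -0.78 on the log2 scale and turned the split of calls over all genes from 3738 higher and 3673 lower to 1732 higher and 7864 lower. On that scale 3 of the 9 genes were higher and 5 lower in WT. Fth1 then changed sign, to a log2 change of -0.09 (adjusted p = 0.51, edgeR), and Slc11a1 was called lower at -0.68. The other 7 kept their sign.

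**Figure D1:**
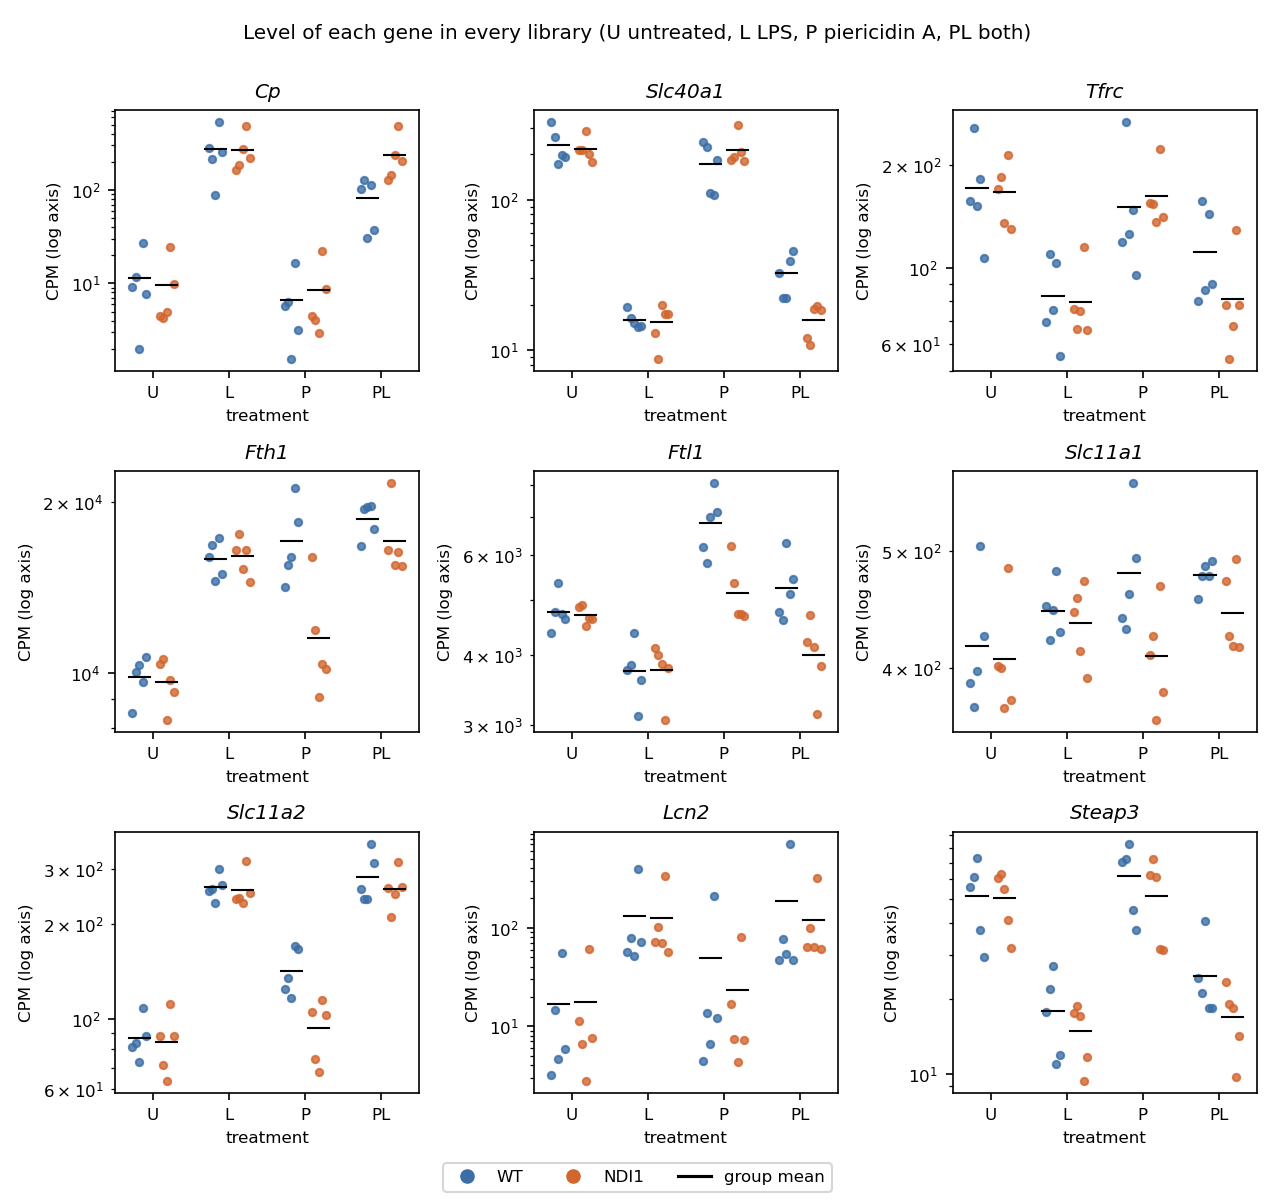
CPM on a log axis of each of the 9 genes in the 40 libraries, by treatment (U untreated, L LPS, P piericidin A, PL both), with 1 point per library, WT in blue, NDI1 in orange and a bar at the group mean of 5. Slc40a1 falls from 231 to 15.9 CPM on average with LPS in WT and is higher, at 32.4 CPM, in WT given both, while NDI1 stays at 15.9 CPM.

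Ferritin is the store of cytosolic iron. Its heavy chain Fth1 (mm10 chr19:9982703-9985092, plus strand) oxidises iron on entry, and its light chain Ftl1 (chr7:45457944-45459884, minus strand) helps to build the core. These were the most abundant of the 9 mRNAs per length. Untreated WT cells held 10606 ± 895 CPM per kb of Fth1 and 4919 ± 374 CPM per kb of Ftl1 (mean ± SD, n = 5), using the length of the main coding transcript. Both chains together took 1.92 ± 0.139% of all counts in that group. Processed copies of ferritin could take some reads. The Ftl1 and Fth1 pseudogenes named in the table held at most 0.015% of their parent's counts. How reads that match both a copy and its parent were counted is not given, and copies under other names were not examined. These counts therefore do not show how many reads are shared.

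Fth1 in untreated WT cells was 8526, 10037, 10352, 9669 and 10683 CPM, and with LPS it was 16003, 16843, 14517, 17299 and 14922 CPM. The groups did not overlap, and the rise was 1.62-fold (log2 0.69 ± 0.13 SE, adjusted p = 2.5e-05, edgeR). Ftl1 went the other way, from 4364, 4758, 5349, 4717 and 4621 CPM to 3763, 3837, 4368, 3116 and 3604 CPM. It fell in each of the 5 mice, to 0.785 of the untreated level (log2 -0.35 ± 0.12, adjusted p = 0.011), though the ranges met at their edges. Without mouse 496 the fall was no longer called (adjusted p = 0.074). In NDI1 cells it was log2 -0.33 ± 0.12 (adjusted p = 0.017), not called without mouse 503 (adjusted p = 0.072).

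The count ratio of Fth1 to Ftl1, which needs no scaling between libraries, described the same divergence. It was 2.07 ± 0.152 in untreated WT cells and 4.33 ± 0.799 with LPS (SD, n = 5), and 2.05 ± 0.131 and 4.32 ± 0.635 in NDI1 cells. The lowest LPS ratio in WT, 3.32, lay above the highest untreated ratio, 2.31.

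Fitted without the mouse as a block, piericidin A alone raised 3 of the 9 genes in WT macrophages, and none was called lower. They were Fth1, Slc11a2 and Ftl1, against 14.8% of all genes called, 7.79% higher and 7.05% lower. This comparison and the LPS comparison share the untreated libraries. With the mouse as a block, Cp (log2 -0.78 ± 0.27, adjusted p = 0.027, edgeR) and Slc40a1 (-0.44 ± 0.16, adjusted p = 0.039) were also called, both lower. Slc11a1, Lcn2 and Steap3 were then called higher, as given below, against 34.2% of all genes called. Under piericidin A, Fth1 was 14213, 15511, 16010.1, 21178 and 18421 CPM in WT, 1.73-fold above untreated (log2 0.79 ± 0.13, adjusted p = 6.6e-05, edgeR). Ftl1 reached 6194, 5813, 7017, 8063 and 7172 CPM, 1.44-fold above untreated (log2 0.52 ± 0.12, adjusted p = 0.0024). Every treated library lay above every untreated library for both chains. Ferritin together then took 2.86 ± 0.296% of counts, against 1.50 ± 0.103% with LPS and 1.92 ± 0.249% with both agents. On total counts the Ftl1 rise came to a log2 change of 0.39 (adjusted p = 0.05, not below the threshold), where the median gene moved by -0.13, and over all genes 503 were called higher and 1708 lower in place of 923 and 836.

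In NDI1 macrophages the same dose left both chains nearer to untreated. Fth1 was 10395, 10604, 8270.4, 9740.0 and 9283 CPM untreated and 16019.9, 11924, 9103, 10379 and 10195 CPM with piericidin A. The value of mouse 447 lay within the WT range, and the other 4 lay below every WT library given the inhibitor. Each of the 5 mice was higher with piericidin A, by 1.07 to 1.54 times, but the change was not called (log2 0.26 ± 0.13, adjusted p = 1). Ftl1 was 4863, 4899, 4495, 4646 and 4630.5 CPM untreated and 6232, 5356, 4728, 4728 and 4686 CPM with the inhibitor (log2 0.13 ± 0.12, adjusted p = 1).

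None of the 9 genes was called for piericidin A alone in NDI1 cells, where no gene passed (0% called by edgeR, 58 genes but none of the 9 at an unadjusted p under 0.05, and 0 by DESeq2). Compared directly, NDI1 cells given piericidin A held less Fth1 (log2 -0.57 ± 0.13, adjusted p = 0.0048), less Ftl1 (-0.41 ± 0.12, adjusted p = 0.025) and less Slc11a2 (-0.61 ± 0.15, adjusted p = 0.0083) than WT cells given it. These 3 of 9 stood against 7.8% of all genes. The Ftl1 call was also lost without mouse 461, 496, 503, 520 or 521 in turn (adjusted p = 0.089, 0.12, 0.053, 0.078 and 0.072), without the low-count filter (adjusted p = 0.14) and on total counts (log2 -0.29, adjusted p = 0.18). All 3 calls were lost when only the compared libraries were fitted, and only Slc11a2 was called with mice 496 and 503 left out.

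The test of whether the piericidin A effect differed between genotypes called none of the 9 without the mouse as a block (1.27% of all genes called). Fth1, Ftl1 and Slc11a2 were at an unadjusted p under 0.05, and DESeq2 called none of the 9. With the mouse as a replicate block all 3 were called, against 8.96% of all genes. The differences, NDI1 minus WT, were log2 -0.54 ± 0.13 for Fth1 (adjusted p = 0.0083), -0.41 ± 0.12 for Ftl1 (adjusted p = 0.034) and -0.57 ± 0.11 for Slc11a2 (adjusted p = 0.00086).

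Added before LPS, piericidin A changed 3 of the 9 genes in WT macrophages without the block, and Ftl1 was called in both settings. Slc40a1 and Ftl1 were higher and Cp was lower than with LPS alone, against 16.7% of all genes called, 7.81% higher and 8.92% lower. The effect with LPS minus that without was not called for Ftl1 (log2 -0.035 ± 0.168, adjusted p = 0.95, edgeR) or Cp (-0.95 ± 0.86, adjusted p = 0.61). With the block it was not called for either gene (adjusted p = 0.86 and 0.066). On total counts the split over all genes turned from 926 higher and 1057 lower to 1006 higher and 705 lower, and 2 of the 9 were called higher and 1 lower. Ftl1 reached 4764, 4601, 6308, 5115 and 5454 CPM, above every library given LPS alone (1.40-fold, log2 0.49 ± 0.12, adjusted p = 0.004, edgeR). Fth1 was already high with LPS and came to 16753, 19474, 19591, 19712 and 17975 CPM, a difference that was not called (log2 0.23 ± 0.13, adjusted p = 0.23). With piericidin A and LPS the Fth1 to Ftl1 ratio was 3.60 ± 0.450 in WT, between the untreated and LPS values.

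**Figure D2:**
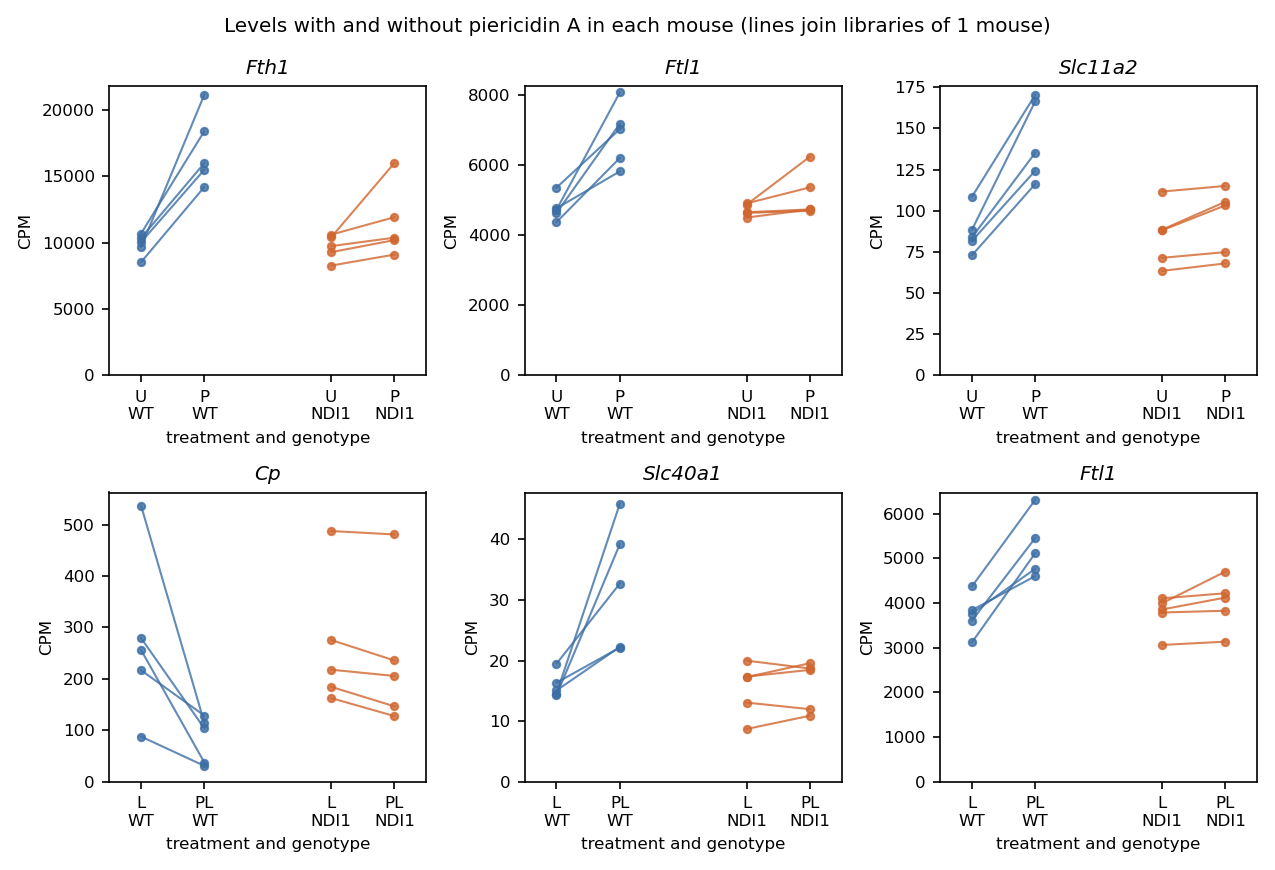
CPM with and without piericidin A in each of 5 WT (blue) and 5 NDI1 (orange) mice, with lines joining the libraries of 1 mouse, for the genes called in resting WT cells (top) and under LPS (bottom). Every WT line runs up for Fth1, Ftl1, Slc11a2 and Slc40a1 and down for Cp, and the Slc40a1 lines in NDI1 run up in 3 mice and down in 2.

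Ferroportin, encoded by Slc40a1 (chr1:45908068-45926523, minus strand), is the only known iron exporter of mammalian cells. In untreated WT macrophages its level was 329, 263, 173, 199.6 and 191 CPM, and with LPS it was 19.5, 16.3, 15.1, 14.3 and 14.5 CPM. Every mouse fell to between 0.0592 and 0.0871 of its untreated level. The fitted change was the largest fall among the 9 genes (log2 -3.86 ± 0.26, adjusted p = 2.6e-15, edgeR). NDI1 mice ran from 177 to 287 CPM untreated and from 8.70 to 20.0 CPM with LPS (log2 -3.84 ± 0.26, adjusted p = 3.0e-15).

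Under LPS, Slc40a1 was higher in WT cells given piericidin A first. With both agents the 5 WT mice had 32.7, 22.1, 22.3, 39.2 and 45.9 CPM, all above the highest value with LPS alone. This was 2.04-fold more (log2 1.03 ± 0.25, adjusted p = 0.0038), still far under the untreated level. Mouse 520 had the largest rise, and without it the change was 1.79-fold and not called (adjusted p = 0.061). In NDI1 mice the levels with both agents were 12.0, 10.9, 18.7, 19.6 and 18.5 CPM, against 13.1, 8.70, 20.0, 17.3 and 17.4 CPM with LPS alone (log2 0.06 ± 0.25, adjusted p = 1). No NDI1 library given both agents reached the lowest WT library given both.

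Without LPS the same inhibitor went the other way for Slc40a1. WT cells had 243, 223, 112, 107 and 182 CPM with piericidin A alone, lower than untreated in 5 of 5 mice but not called without the block (log2 -0.41 ± 0.23, adjusted p = 0.23). The piericidin A effect with LPS exceeded that without LPS by log2 1.44 ± 0.34 (adjusted p = 0.0086), the 1 gene of the 9 called for that difference in WT by edgeR without the block, where 4.75% of all genes were (DESeq2 called 2 of the 9). It was not called without mouse 496 (adjusted p = 0.077), without mouse 520 (adjusted p = 0.067) or without mice 496 and 503 (adjusted p = 0.091). With the mouse block Slc40a1 (1.46 ± 0.26, adjusted p = 0.00015), Slc11a2 (-0.62 ± 0.11, adjusted p = 0.00017), Fth1 (-0.56 ± 0.13, adjusted p = 0.0042) and Tfrc (0.63 ± 0.16, adjusted p = 0.0049) were called, against 17.4% of all genes. In NDI1 cells no gene was called for it (0%, with 78 genes but none of the 9 at an unadjusted p under 0.05, and 0 by DESeq2).

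Ceruloplasmin, encoded by Cp (chr3:19957054-20009145, plus strand), is a copper ferroxidase that loads exported iron onto transferrin. It was nearly silent at rest, at 2.85 ± 2.33 CPM per kb in untreated WT cells against 68.6 ± 19.1 CPM per kb for Slc40a1 (SD, n = 5). Without mouse 496 the Cp level was 1.89 ± 1.02 CPM per kb (n = 4). Levels per library were 9.05, 11.6, 1.96, 27.0 and 7.74 CPM untreated and 279, 217, 87.8, 537 and 256 CPM with LPS. Each WT mouse rose by 18.6 to 44.7 times (fitted log2 4.59 ± 0.67, adjusted p = 2.5e-07), the largest rise of the 9. NDI1 mice rose by 19.9 to 55.7 times (log2 4.80 ± 0.68, adjusted p = 1.5e-07). Cp shares 108 exon bases with Hps3 on the opposite strand, 1.13% of its exon length, and the strand setting of the counts is not given in the sources used here.

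The LPS-induced Cp level was lower in WT cells given piericidin A first. It was 104, 128, 30.8, 114 and 37.2 CPM, down in 5 of 5 mice to between 0.145 and 0.593 of the LPS level. The groups overlapped, because mouse 453 had the lowest value in both. The change was called (log2 -1.73 ± 0.59, adjusted p = 0.04), but not when mouse 449, 496, 520 or 521 was left out in turn (adjusted p = 0.084, 0.11, 0.16 and 0.055). It remained called without both mouse 496 and mouse 503 (log2 -1.48 ± 0.44, adjusted p = 0.032), and with the mouse block (-1.71 ± 0.22, adjusted p = 1.0e-06). In NDI1 mice the levels were 163, 184, 276, 488 and 218 CPM with LPS and 128, 146, 236, 481 and 206 CPM with both (log2 -0.15 ± 0.57, adjusted p = 1).

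With LPS and piericidin A together, NDI1 cells held less Slc40a1 (log2 -1.03 ± 0.25, adjusted p = 0.0052, edgeR) and less Ftl1 (-0.39 ± 0.12, adjusted p = 0.026) than WT cells, 2 of 9 genes against 12% of all genes. For Cp the difference was log2 1.53 ± 0.59 (adjusted p = 0.084). With the mouse number as a block in limma it was called higher (1.58 ± 0.37, adjusted p = 0.0049). The Ftl1 call was lost in 9 of 18 alternatives, among them the fit without mice 496 and 503 (adjusted p = 0.13) and those without mouse 453, 461, 496, 503, 520 or 521 (adjusted p = 0.08, 0.055, 0.054, 0.092, 0.078 and 0.066). The Slc40a1 call held in 18 of 18.

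Whether piericidin A acted differently under LPS in the 2 genotypes was tested directly. Without the block none of the 9 was called, against 0.979% of all genes. Slc40a1 and Ftl1 were at an unadjusted p under 0.05, and DESeq2 called none of the 9. With the mouse block Cp (NDI1 minus WT, log2 1.50 ± 0.31, adjusted p = 0.0024), Slc40a1 (-0.96 ± 0.28, adjusted p = 0.027) and Ftl1 (-0.40 ± 0.12, adjusted p = 0.038) were called, against 9.51% of all genes. In NDI1 cells themselves, piericidin A under LPS called no gene (0% by edgeR, 127 genes but none of the 9 at an unadjusted p under 0.05, and 0 by DESeq2). The genotypes also had no called gene untreated (0%, 39 genes at an unadjusted p under 0.05) or with LPS alone (0%, 141 genes), with none of the 9 among those genes and 0 by DESeq2.

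**Figure D3:**
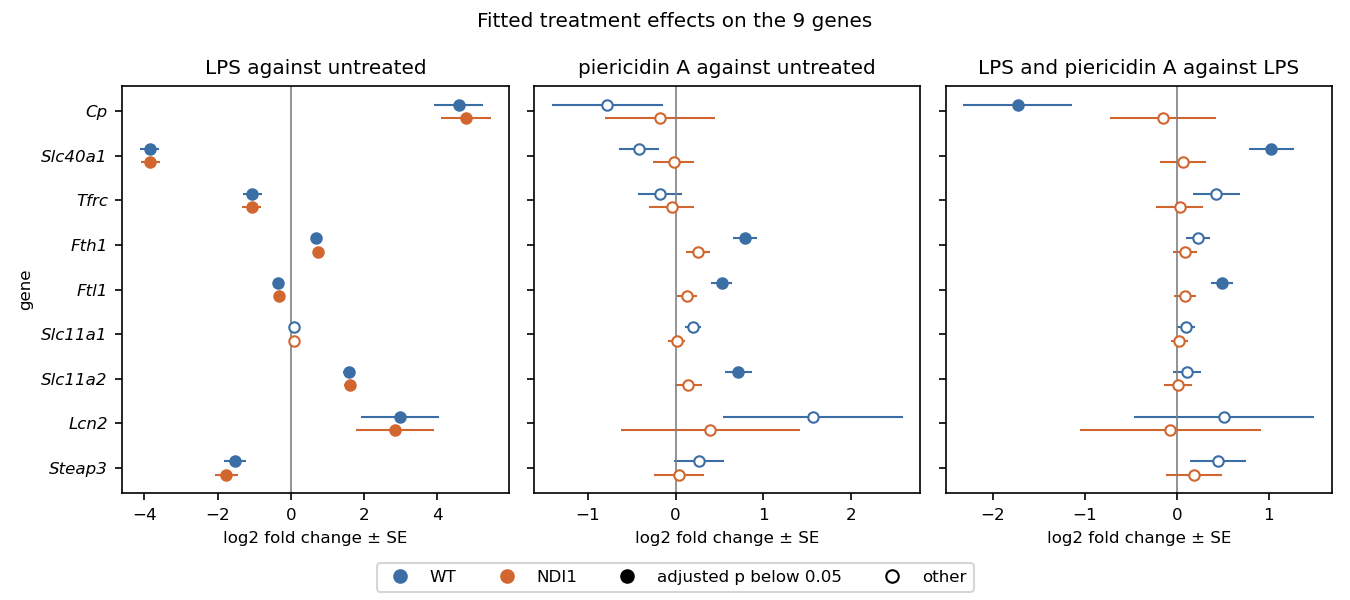
Fitted log2 fold change with its SE (bars) for each of the 9 genes, for LPS (left), piericidin A alone (middle) and piericidin A under LPS (right), in WT (blue) and NDI1 (orange), with filled points for an adjusted p below 0.05. In the left panel 8 genes are filled in both genotypes, in the middle and right panels 3 genes each are filled, in WT only.

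Transferrin-bound iron enters through the receptor Tfrc (chr16:32608920-32632794, plus strand) and is reduced in endosomes by Steap3 (chr1:120190757-120272705, minus strand) before it crosses the endosomal membrane. Tfrc was 157, 257, 151, 183 and 107 CPM in untreated WT cells and 69.6, 110.0, 75.3, 103 and 55.1 CPM with LPS. Each mouse fell to between 0.428 and 0.567 of its own untreated level, although the ranges overlapped (log2 -1.05 ± 0.26, adjusted p = 0.00065, edgeR). In NDI1 cells the change was log2 -1.07 ± 0.26 (adjusted p = 0.00052), with no overlap.

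Steap3 went down with its partner in the transferrin cycle. In untreated WT cells it was 56.0, 61.2, 73.2, 37.5 and 29.2 CPM, and with LPS it was 17.7, 21.8, 27.0, 11.0 and 12.0 CPM (log2 -1.51 ± 0.30, adjusted p = 3.7e-05). The groups did not overlap, and in NDI1 cells the fall was log2 -1.76 ± 0.30 (adjusted p = 4.5e-06). The order of the mice was similar across treatments, with mouse 453 highest and mice 496 and 520 lowest in each WT group.

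Under LPS, piericidin A left Tfrc and Steap3 higher on average in WT without a call. Tfrc was 80.2, 157, 86.2, 144 and 89.8 CPM, above LPS alone in 5 of 5 mice (log2 0.43 ± 0.26, adjusted p = 0.26). Steap3 was 24.3, 21.1, 41.0, 18.3 and 18.4 CPM, above LPS alone in 4 of 5 (log2 0.45 ± 0.30, adjusted p = 0.32). With the mouse block both were called, at adjusted p = 0.0039 for Tfrc and 0.0027 for Steap3, which brought the count to 5 of 9 against 34.5% of all genes.

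DMT1, encoded by Slc11a2 (chr15:100387898-100425072, minus strand), moves ferrous iron out of the endosome, and was the transporter that responded most evenly. It was 81.6, 83.7, 72.8, 108 and 88.3 CPM in untreated WT cells and 255, 258, 234, 299.9 and 266 CPM with LPS. All 5 mice rose by 2.77 to 3.21 times (log2 1.59 ± 0.16, adjusted p = 3.2e-11, edgeR), and NDI1 mice by 2.73 to 3.69 times (1.61 ± 0.16, adjusted p = 2.7e-11). Slc11a2 shares 402 exon bases with Gm5475 on the opposite strand, a gene with at most 16 counts in any library.

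Piericidin A alone also raised Slc11a2 in WT, to 124, 135, 116, 170.4 and 166 CPM. The rise was 1.64-fold (log2 0.71 ± 0.15, adjusted p = 0.0014) and the groups did not overlap. In NDI1 cells it was 88.4, 71.3, 63.4, 112 and 88.0 CPM untreated and 105, 74.8, 67.9, 115 and 103 CPM with piericidin A (log2 0.14 ± 0.15, adjusted p = 1). Each NDI1 library given the inhibitor lay below each WT library given it. Once LPS was present, piericidin A left Slc11a2 at 259.7, 239.9, 240.4, 360.4 and 314 CPM in WT (log2 0.11 ± 0.15, adjusted p = 0.67).

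Slc11a1 (chr1:74375195-74386062, plus strand) encodes the metal transporter of the phagosome, known for limiting the growth of engulfed bacteria. On TMM scaling it was the steadiest of the 9 with LPS, at 371 to 504 CPM in untreated WT and 422 to 481 CPM with LPS (log2 0.09 ± 0.09, adjusted p = 0.39). On total counts Fth1 moved least with LPS (log2 -0.09 in WT). Slc11a1 was then called lower in WT (-0.68, adjusted p = 7.4e-09, edgeR) and in NDI1 (-0.67, adjusted p = 1.2e-08). Piericidin A alone gave 431 to 569 CPM, higher than untreated in 5 of 5 WT mice by 1.13 to 1.16 times (log2 0.20 ± 0.09, adjusted p = 0.15). With the mouse block this was called (adjusted p = 0.012). The block also added Cp (log2 -0.78 ± 0.27, adjusted p = 0.027), Slc40a1 (-0.44 ± 0.16, adjusted p = 0.039), Lcn2 (0.88 ± 0.32, adjusted p = 0.03) and Steap3 (0.28 ± 0.10, adjusted p = 0.033) to the calls for piericidin A alone in WT, 8 of 9 against 34.2% of all genes. For Lcn2, mouse 496 rose most, by 3.80 times, and without mice 496 and 503 the change, fitted without the block, was log2 0.35 ± 0.41 (adjusted p = 0.67).

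Lipocalin 2, encoded by Lcn2 (chr2:32384633-32388252, minus strand), binds the siderophores with which bacteria take iron, and is also abundant in neutrophil granules. Untreated WT cells held 3.18, 14.6, 4.67, 55.4 and 5.84 CPM, and LPS gave 57.3, 78.4, 52.1, 398.5 and 71.3 CPM. Mouse 496 was far above the rest in both groups, and its untreated value overlapped the LPS range. All 5 mice rose, by 5.36 to 18.0 times (log2 2.98 ± 1.07, adjusted p = 0.015), and without mice 496 and 503 the rise was log2 3.19 ± 0.41 (adjusted p = 1e-07). NDI1 mouse 503 stood out in the same way, with 60.1 CPM untreated against 2.76 to 11.4 CPM and 334 CPM with LPS against 56.6 to 101 CPM in the other 4. The NDI1 rise was log2 2.85 ± 1.06 (adjusted p = 0.02), not called without mouse 460 (adjusted p = 0.058) or on total counts (log2 2.07, adjusted p = 0.055). DESeq2 gave no adjusted p for Lcn2 under LPS in either genotype.

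Piericidin A called no change of Lcn2 without the block. Mouse 496 reached 210.4 CPM with the inhibitor alone and 710.3 CPM with LPS as well, where the other 4 WT mice ran from 4.39 to 13.6 CPM and from 46.8 to 77.4 CPM. The summed neutrophil markers of mouse 496 were also higher with piericidin A than without it, at 522 CPM untreated, 1545 with piericidin A, 1235 with LPS and 2764 with both. They did not follow Lcn2 throughout. With LPS alone Lcn2 in this mouse was 398.5 CPM, above its value with piericidin A alone, where the marker sum was the larger. In the other 4 WT mice the sum was 55.2 to 139 CPM untreated and 117 to 232 CPM with LPS. The fitted change under LPS was log2 0.51 ± 0.98 with all mice and -0.20 ± 0.37 without mice 496 and 503 (adjusted p = 0.76 and 0.79). Lcn2 and Cp were highest in these mice within nearly every group, beside the higher neutrophil markers given above, whose part in their levels was not tested. The exception was Cp in WT cells given both agents, where mouse 452 was highest at 128 CPM.

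**Figure D4:**
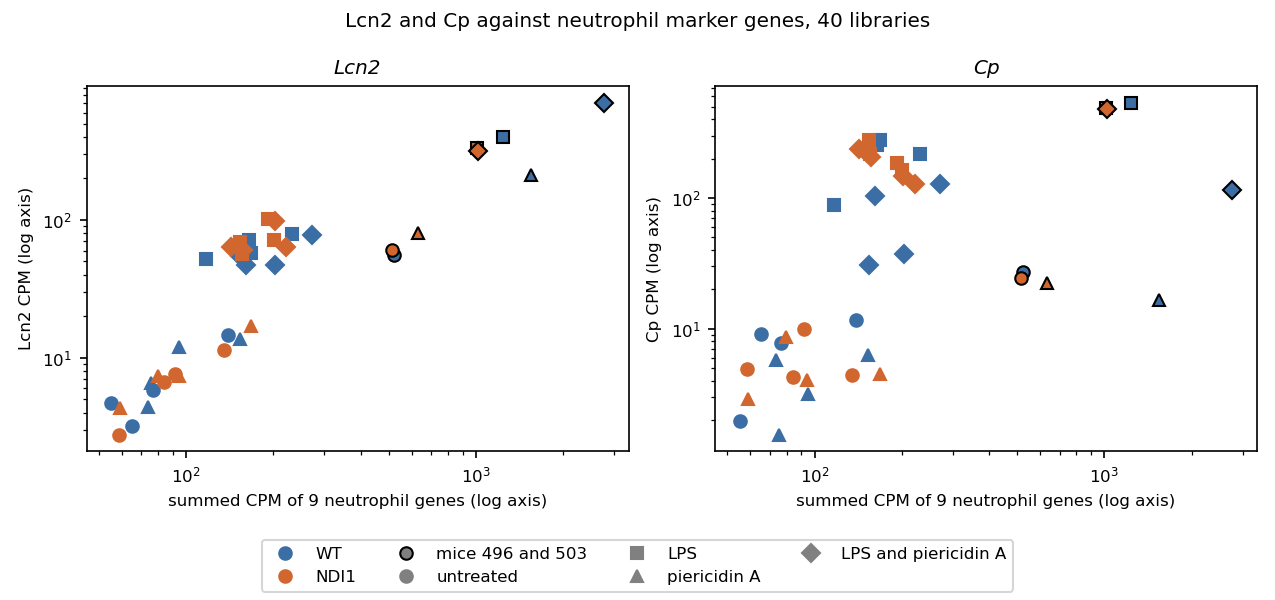
CPM of Lcn2 (left) and Cp (right) against the summed CPM of 9 neutrophil marker genes in the 40 libraries, all axes log, with WT in blue, NDI1 in orange, shapes for the treatments and black outlines for mice 496 and 503. The 8 outlined libraries lie at 515 CPM or more on the marker axis and the other 32 at 271 CPM or less.

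Levels per length ordered the 9 genes in untreated WT cells from Fth1 and Ftl1 through Slc11a1 at 180.2 ± 22.6 CPM per kb, Slc40a1 at 68.6 ± 19.1, Tfrc at 35.0 ± 11.3, Slc11a2 at 28.8 ± 4.38, Lcn2 at 18.3 ± 24.1 and Steap3 at 9.97 ± 3.47 to Cp at 2.85 ± 2.33 (SD, n = 5). The neighbours Tfrc, Slc11a2 and Lcn2 lay within the SDs of each other. With LPS the middle of the order changed. Lcn2 was at 144 ± 164, Slc11a2 at 86.8 ± 7.95, Cp at 68.4 ± 40.7, Tfrc at 16.9 ± 4.76, Slc40a1 at 4.73 ± 0.632 and Steap3 at 3.47 ± 1.30 CPM per kb, so that Slc40a1 went from above Tfrc and Slc11a2 to below both. The place of Lcn2 rested on mouse 496. Without it, Lcn2 was at 7.74 ± 5.63 CPM per kb untreated, below Steap3 at 10.7 ± 3.60, and at 70.8 ± 13.3 with LPS, below Slc11a2 at 83.7 ± 4.59 (SD, n = 4).

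The genes whose log2 CPM followed each member most closely over the 40 libraries are given as a description, since LPS set most of the variance. Cp was closest to Ctsc, with Pearson's r = 0.988, Srgap2 and Msr1. For Slc40a1 the closest were Samd1 (r = 0.973), Engase and Arl11, and for Slc11a2 they were Hcar2 (r = 0.983), Plek and Plaur. Ftl1 was closest to Gde1 (r = 0.925), Plpbp and Amz1, and Fth1 to the pseudogene Gm6977 (r = 0.937), Ctsz and Rpl21. Tfrc followed Tns1 (r = 0.876), Phf20 and Npc1, and Steap3 followed Nipal3 (r = 0.973), C77080 and Pip4k2c. Slc11a1 was closest to Capzb (r = 0.817), Noc2l and Babam2, and Lcn2 to Ptma (r = 0.961) and Cd38.

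The wider iron pathway was read from 5 lists of 86 other genes, 72 of which were tested. LPS in WT called 47 of the 72, or 65.3%, 22 higher and 25 lower, near the 62.5% of all genes, with a list median of log2 -0.06 beside -0.01 over all genes. On total counts the LPS calls were 9 higher and 52 lower, so the split within each list is relative to the bulk of genes. Piericidin A alone in WT called 12 of the 72, 9 higher and 3 lower, against 14.8% of all genes, 7.79% higher and 7.05% lower. Piericidin A under LPS called 10, 5 higher and 5 lower, against 16.7% of all genes, 7.81% higher and 8.92% lower. The counts within single lists below are read against the same shares. On total counts these were 4 higher and 4 lower alone, and 6 higher and 3 lower under LPS.

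Among uptake and membrane transport genes, LPS in WT called 5 of 9 tested, 3 higher and 2 lower (list median log2 0.22). Slc39a14, a carrier of iron not bound to transferrin, rose from 17.1 ± 4.10 to 208 ± 62.9 CPM (SD, n = 5, log2 3.60 ± 0.25 SE, adjusted p = 4.4e-15, edgeR). The haptoglobin gene Hp rose (2.28 ± 0.79, adjusted p = 0.012, but 1.47 and 0.066 on total counts), as did the metalloreductase Steap4, from at most 0.249 CPM to between 1.12 and 8.78 CPM. Cd163, the receptor that clears hemoglobin bound to haptoglobin, fell (-1.69 ± 0.27, adjusted p = 1e-06). Piericidin A alone called 2 of 9, with Cd163 lower (-0.90 ± 0.25, adjusted p = 0.013) and the lysosomal iron channel Mcoln1 higher (0.52 ± 0.10, adjusted p = 0.00037). Under LPS the inhibitor lowered Slc39a14, to 85.5 ± 23.9 CPM (-1.28 ± 0.23, adjusted p = 0.00019), and raised Mcoln1 (0.35 ± 0.10, adjusted p = 0.014), 2 of 9. For LPS alone Mcoln1 was not called without the block (0.20 ± 0.10, adjusted p = 0.079), was called higher with it (0.20 ± 0.09, adjusted p = 0.042), and was called lower on total counts (-0.57, adjusted p = 0.00011). NDI1 cells given both agents held 166 ± 59.4 CPM of Slc39a14, and its piericidin A effect under LPS differed between genotypes by log2 1.12 ± 0.32 (adjusted p = 0.076, or 0.0024 with the mouse block).

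Regulators included the iron-regulatory proteins, the heme sensor Bach1 and the RNA decay factors Zfp36 and Zfp36l1. LPS in WT called 12 of 16, 7 higher and 5 lower (list median log2 0.28), with Zfp36 up (3.14 ± 0.21, adjusted p = 8.4e-16) and Zfp36l1 down (-3.58 ± 0.39, adjusted p = 4.4e-10). Piericidin A alone called 4 of 16, 3 higher and 1 lower, with Keap1, the partner that holds Nfe2l2 in check, down (-0.41 ± 0.11, adjusted p = 0.01). Zfp36 (1.20 ± 0.19, adjusted p = 3.5e-05), the antioxidant factor Nfe2l2 (0.81 ± 0.14, adjusted p = 0.00013) and Hif1a (0.77 ± 0.26, adjusted p = 0.043) rose. Under LPS the inhibitor called 4 of 16, 2 in each direction. Bach1 rose from 207 ± 34.6 to 553 ± 222 CPM (1.42 ± 0.18, adjusted p = 1.2e-06) and Zfp36l1 from 6.02 ± 3.00 to 15.8 ± 9.37 CPM (1.41 ± 0.39, adjusted p = 0.011). Ireb2, which encodes iron-regulatory protein 2, fell from 99.5 ± 12.2 to 67.6 ± 18.5 CPM (-0.56 ± 0.15, adjusted p = 0.01), and Nfe2l2 fell (-0.41 ± 0.14, adjusted p = 0.046, but -0.35 and 0.057 on total counts). With the mouse block Ireb2 was also called lower with piericidin A alone (-0.36 ± 0.10, adjusted p = 0.0051).

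By edgeR without the block, Bach1 was the 1 gene of all 72 whose piericidin A effect under LPS differed between genotypes (NDI1 minus WT, log2 -1.25 ± 0.25, adjusted p = 0.0068). DESeq2 also called 1 uptake and 1 heme gene, and total counts 1 uptake gene. With the mouse block 1 uptake, 3 regulator and 3 heme genes were called, against 9.51% of all genes, among them Slc39a14 as given above, Bach1 (-1.21 ± 0.22, adjusted p = 0.00076), Zfp36l1 (-1.45 ± 0.34, adjusted p = 0.0073), Ireb2 (0.48 ± 0.14, adjusted p = 0.026), Flvcr1 (-1.06 ± 0.16, adjusted p = 0.00011) and Flvcr2 (2.42 ± 0.58, adjusted p = 0.0086). Flvcr2 was scarce, at most 0.640 CPM in WT given both agents, and passed the filter on low counts through groups where it was higher. Its difference rests on few counts and was not called without the block (adjusted p = 0.072, edgeR). Without the block, Bach1 was not called when mouse 496, mouse 520 or both mice that stood apart were left out.

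Heme genes were tested in full, 18 of 18. LPS in WT called 11, 4 higher and 7 lower (list median log2 -0.46). The heme exporter Flvcr1 fell from 100.0 ± 23.3 to 32.8 ± 10.0 CPM (-1.61 ± 0.20, adjusted p = 1e-08). Its relative Flvcr2 rose, from 0.138 ± 0.136 to 2.22 ± 0.797 CPM. Piericidin A alone called none of the 18 by edgeR without the block and 4 with it, where 34.2% of all genes were called, so the share of the list was below that of all genes. Flvcr1 was among the 4 (0.38 ± 0.10, adjusted p = 0.0045). Under LPS it called 3, with Flvcr1 higher than with LPS alone at 66.5 ± 10.6 CPM (1.02 ± 0.20, adjusted p = 0.00059), Flvcr2 down at 0.435 ± 0.141 CPM (-2.33 ± 0.51, adjusted p = 0.0017) and the heme oxygenase Hmox2 lower (-0.26 ± 0.09, adjusted p = 0.039, but -0.20 and 0.17 on total counts). In NDI1 cells given both agents, Flvcr1 was 34.4 ± 7.40 CPM and Flvcr2 1.78 ± 0.611 CPM. Flvcr2 was scarce, with at most 0.318 CPM in untreated WT and 0.640 CPM in WT given both agents. It passed the filter on low counts through groups given LPS where it was higher. Its changes rest on few counts and on those groups.

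Of the 24 genes of mitochondrial iron and iron-sulfur clusters, LPS in WT called 16, 6 higher and 10 lower (list median log2 -0.14). The mitochondrial iron importer Slc25a37 rose (1.97 ± 0.21, adjusted p = 4.2e-10), and the ferredoxin reductase Fdxr (-2.05 ± 0.31, adjusted p = 3.6e-07) and the cluster cochaperone Hscb (-1.60 ± 0.30, adjusted p = 1.5e-05) fell. Piericidin A alone called 3 of 24, with Slc25a28 (0.49 ± 0.16, adjusted p = 0.035) and Ciao2b (0.45 ± 0.16, adjusted p = 0.044) higher and Iba57 lower (-0.48 ± 0.12, adjusted p = 0.008), of which Iba57 alone was called on total counts. Hscb was called higher as well with the mouse block (0.46 ± 0.16, adjusted p = 0.024). Under LPS it called 1, where Hscb rose (1.16 ± 0.31, adjusted p = 0.0081), and with the block Fdxr was called higher (0.92 ± 0.35, adjusted p = 0.041). Of the 5 storage and chaperone genes other than ferritin, LPS called 3. The ferritin receptor of autophagy Ncoa4 fell (-1.18 ± 0.15, adjusted p = 1.6e-08). The iron chaperones Pcbp1 (0.54 ± 0.09, adjusted p = 4.2e-06) and Pcbp2 (0.41 ± 0.10, adjusted p = 0.00065) were higher, but lower on total counts, at -0.24 and -0.38. Piericidin A alone raised 3 of 5 (7.79% of all genes rose), Pcbp1 (0.36 ± 0.09, adjusted p = 0.0076), Pcbp2 (0.31 ± 0.10, adjusted p = 0.036) and Glrx3 (0.50 ± 0.17, adjusted p = 0.044), with none called under LPS. The 3 calls were 0 without the filter on low counts, on total counts or without mouse 496. Genes in this and the preceding paragraphs outside the rule for named genes (Keap1, Hmox2, Slc25a28, Ciao2b, Iba57, Ncoa4, Pcbp1, Pcbp2 and Glrx3) were chosen after their values were seen.

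Genes that carry a match to the hairpin pattern in the 5′ UTR, as Fth1, Ftl1 and Slc40a1 do, were counted as well. Of 21 tested, piericidin A alone in WT called 6 higher, Fth1 and Ftl1 among them, and 1 lower (7.79% and 7.05% over all genes). Piericidin A under LPS called 3 higher, Ftl1 and Slc40a1 among them, and 1 lower (7.81% and 8.92%). LPS called 9 higher, Fth1 among them, and 7 lower, Ftl1 and Slc40a1 among them (31.5% and 31%). These counts therefore include calls already given above. Of 87 tested genes with a match in the 3′ UTR, as in Tfrc, piericidin A alone called 7 higher and 9 lower. Piericidin A under LPS called 11 higher and 10 lower, and LPS 29 higher and 39 lower, Tfrc among the lower.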

How the data were processed

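RNA was sequenced from 40 libraries, polyA-selected and read on a NextSeq 500. Per the labels and the study's methods, the authors demultiplexed with bcl2fastq, trimmed with Trimmomatic, aligned to mm10 with STAR and counted reads in exons with HTSeq, and deposited raw counts per gene. The annotation release and strand setting are not given in the sources used here. The table's column that belongs to no sample (1) and its length column were not used. The genes and lists were chosen with earlier results of these data known. Genes were tested with edgeR 4.0.16 (filterByExpr, TMM, quasi-likelihood test, 1 mean per group, all 40 libraries), with Benjamini-Hochberg adjustment over 11853 genes and a threshold of 0.05. SE is the log2 change divided by the square root of F. Members are all named. Listed genes are named if called for piericidin A in WT with a log2 change of at least 0.5 (up to 12), or among the 6 largest rises and falls with LPS. For likeness 3 genes per member were taken. Some genes these rules select are not reported here. Same-numbered libraries deviated together (mean r = 0.453, 59 of 60 pairs over 0.1, lowest 0.0995, against -0.107 for other pairs), so blocked values (edgeR, or limma 3.58.1 with duplicateCorrelation between genotypes) stand where they change a call. Nothing states that 1 number is 1 mouse, and if libraries share a culture p-values may measure technical spread. DESeq2 1.42.0 was an alternative. The code was checked on simulated counts. Sequences come from GENCODE vM21.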

Additional observations from a re-analysis of the deposited data

Results flagged for a closer look

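Of 72 combinations of gene and group, 16 had a library whose gap to the next was above 0.71 of the group's range, where chance gives about 1 in 20. Lcn2 made up 8 of them. Mouse 496 had 55.4 CPM untreated, 398.5 with LPS, 210.4 with piericidin A and 710.3 with both, and mouse 503 had 60.1, 334, 80.2 and 318 CPM. Mouse 503 was also highest for Cp untreated (24.6 CPM), Tfrc with LPS (115 CPM) and with piericidin A (223 CPM), Slc11a1 untreated (484 CPM) and Slc11a2 with LPS (319 CPM). Other mice gave Slc40a1 in NDI1 with piericidin A (mouse 461, 312 CPM), Fth1 in NDI1 with both agents (mouse 460, 21625 CPM) and Steap3 in WT with both agents (mouse 453, 41.0 CPM).

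Effects differed between genotypes with the mouse block in 6 cases. For piericidin A alone these were log2 differences, NDI1 minus WT, of -0.54 for Fth1, -0.41 for Ftl1 and -0.57 for Slc11a2. Under LPS they were 1.50 for Cp, -0.96 for Slc40a1 and -0.40 for Ftl1. In WT the piericidin A effect with LPS minus that without was 1.44 for Slc40a1 without the block and 1.46 with it. With the block it was 0.63 for Tfrc, -0.56 for Fth1 and -0.62 for Slc11a2.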

How the results depend on the processing

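The 28 calls of single genes gave 502 values under the alternatives, of which 464 kept sign and call, 36 kept the sign and lost the call, and 2 changed sign. Both sign changes were Fth1 under LPS on total counts, -0.092 in WT and -0.036 in NDI1 (both the total-count fit and the fit without both mice were chosen after seeing the data). Relative to the median gene on total counts, Fth1 was at log2 0.69 in WT and 0.74 in NDI1, beside 0.69 and 0.73 with TMM. The cause of the shift of the median gene was not tested. Of 630 counts of called genes over comparisons and lists, 555 stayed within 1.5 times.

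Counts of the 9 genes moved by more than 1.5 times, or to or from 0, as follows, and not elsewhere. Smaller moves are left out, such as 2 calls for piericidin A alone in WT on total counts. With the replicate block piericidin A called 8 in WT alone and 5 under LPS, the difference between genotypes called 3 in each case, and the difference with and without LPS in WT called 4 (2 by DESeq2, 0 without both mice that stood apart). NDI1 against WT called 0 with piericidin A and 1 with both agents when only the compared libraries were fitted, 1 and 1 without both mice, and 1 with both agents without the low-count filter. Leaving out each mouse gave 1 to 3 for piericidin A under LPS, 3 to 3 alone, 2 to 3 and 1 to 2 for NDI1 against WT, 0 to 0 for both genotype differences and 0 to 1 for the LPS difference.

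Counts in the lists moved too. With the block, piericidin A alone called 4 uptake, 10 regulator, 4 heme and 7 mitochondrial genes, under LPS 4, 9, 7 and 5, and the genotype difference 1, 3 and 3 for the first 3. DESeq2 gave 5 heme genes under LPS and 1 uptake and 1 heme gene for the genotype difference. Without the filter there was 1 uptake gene under LPS, 0 storage and 1 mitochondrial gene alone. Fitting only the compared libraries gave 2 regulators and 1 heme gene under LPS and 1 heme gene for the difference. Without both mice there were 1 uptake gene and 2 regulators under LPS, 0 regulators for the difference, and 0 storage and 1 mitochondrial gene alone. Total counts gave 5 storage and 18 heme genes with LPS, 0 storage and 1 mitochondrial gene alone, and 1 uptake gene for the difference. Leaving out each mouse gave, alone, 1 to 2 uptake, 0 to 3 storage, 2 to 4 regulator, 0 to 0 heme and 1 to 3 mitochondrial genes, under LPS 1 to 2, 1 to 4, 2 to 4 and 0 to 2 without storage, for the difference 0 to 1 uptake, regulator and heme genes, and with LPS 3 to 3 storage and 11 to 12 heme genes. Cp and Lcn2 at rest rest on few counts, from 22 and 34 per library.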
